A study of Rattus norvegicus with 59 samples.

Results

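Lungs of rats that had inhaled crystalline silica were compared with lungs of rats that had inhaled air, 18 months after the exposure ended, the latest of the 6 times in the study. All samples labelled with that time were taken, 5 silica and 5 air lungs, which made 10 of the 59 libraries of the series, each from 1 rat. The silica rats were male Fischer 344 rats that had breathed 15 mg/m3 of crystalline silica for 6 hours a day on 5 days in a whole-body chamber. The air rats were males of the same strain that went through the chamber with 0 mg/m3. All rats were bought at 3 months of age, and neither group carried an engineered allele. RNA came from a piece of whole lung, and levels are scaled to the fragments of each library. A lower level can mean fewer cells of a type, less RNA per cell or more RNA from other genes. These cannot be told apart.

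Inhaled silica particles are taken up by alveolar macrophages, damage the lysosomes that hold them, and are cleared slowly. The dying macrophages release cytokines that draw in neutrophils and further monocytes, and long exposure leads to silicosis, with granulomas, scarring and surfactant lipid in the air spaces. Alveolar type 2 cells, which make surfactant, multiply in lungs injured by silica. The comparison asks which of these responses could still be read in the lung so long after a short exposure.

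Levels are in FPKM, fragments scaled by transcript length and by the number of fragments mapped in the library, and changes are log2 differences of FPKM + 0.5 between silica and air. Of 2887 complete gene entries in the table, 1278 reached 1 FPKM in 4 or more libraries, the minimum for a test. Among the 2061 entries found in a rat gene table of assembly GRCr8, 99.3% lie on chromosome 1, so the account covers genes of that chromosome. Defining markers of several lung cell types, Sftpc of type 2 cells and Scgb1a1 of club cells among them, were not analysed here. Napsa, the aspartic protease that matures surfactant proteins, was present in every lung at 80.5 FPKM or more. FPKM sums over the entries were 15899 to 16905 in silica lungs and 14856 to 17439 in air lungs (exact permutation test over libraries, two-sided p = 0.341, where the smallest possible p is 0.00794). The median level of the tested genes was 0.058 higher in silica lungs on the log2 scale (exact permutation p = 0.0794). Absolute depth is unknown. Relative depth, read from the smallest steps between low FPKM values, was 0.939 to 1.18 in silica lungs and 0.830 to 2.26 in air lungs, the highest being air replicate 2 (exact permutation p = 0.754).

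Several neutrophil genes, receptors of myeloid cells, lysosome and peptidase genes and alveolar type 2 related genes were higher in silica lungs at 18 months. Few genes were lower by much. At an adjusted p of 0.05, limma called 196 of the 1278 genes (15.3%), of which 151 were higher in silica (11.8%) and 45 lower (3.52%). The median rise was 0.42 and the median fall -0.35. Rises of at least 1 on the log2 scale numbered 16, of which 9 belonged to genes with a symbol, and no called fall was that large. The largest fitted rises, those of LOC100910212 and LOC102553726, belong to entries listed at 0 in several lungs of either group, and no fold is given for them. In 142 of all tested genes (11.1%) the groups did not overlap, with every silica lung above every air lung in 118 (9.23%) and below in 24 (1.88%). Among the called genes, 87 of the higher and 13 of the lower separated the groups in this way. When each library was centred on its median, the split of the calls was 112 higher and 109 lower, so the excess of rises depends on the scaling, whereas no named gene changed direction under any alternative.

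**Figure D1:**
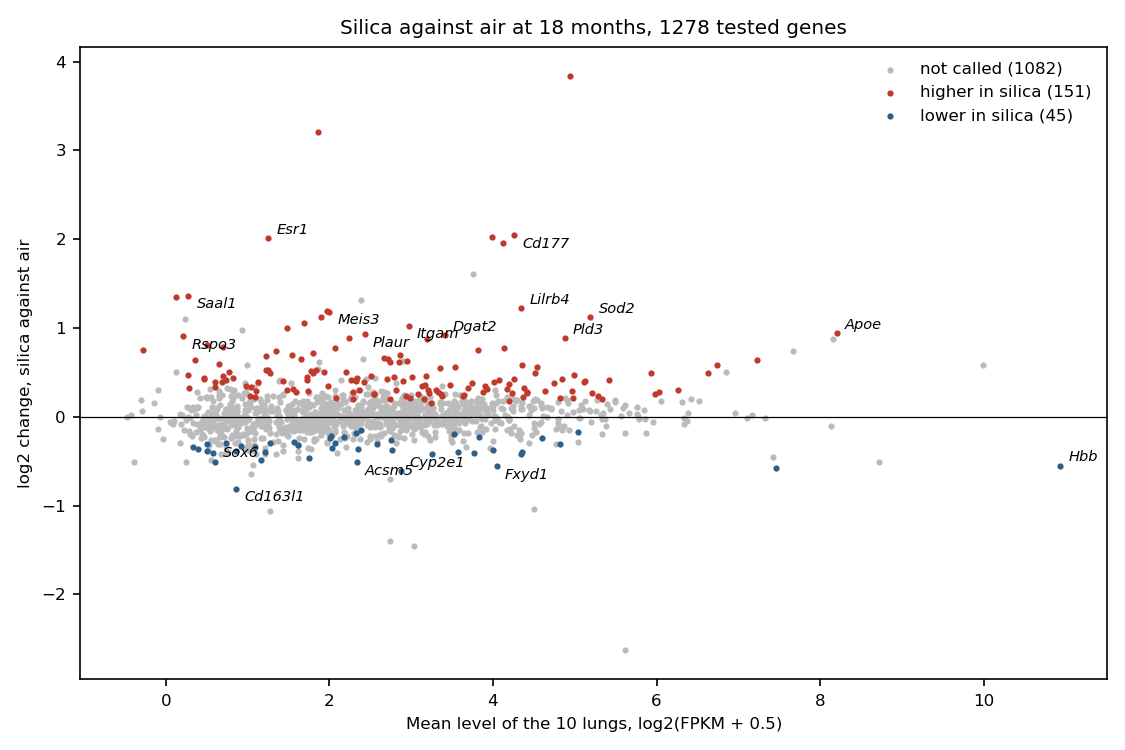
Log2 change of each of the 1278 tested genes, silica against air at 18 months (vertical axis), against the mean level of the 10 lungs as log2(FPKM + 0.5) (horizontal axis, log scale). Red points are the 151 genes called higher and blue points the 45 called lower. Rises reach beyond 2 at several levels, while the called falls end at -0.81.

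Silica replicate 4 stood apart from the other silica lungs. It was the highest silica lung in 84 of the 151 higher genes and the lowest in 31 of the 45 lower ones, against at most 19 and 7 for any other silica lung. Its median deviation from the air mean was 0.56 over the higher genes, against 0.32 to 0.41 in the other silica lungs. Over the lower genes it was -0.57, against -0.22 to -0.33. Without this lung, 112 genes were called, of which 105 were higher and only 7 lower, and 109 of the 112 were among the original 196. The number of lower genes also moved with air lungs, to 29 without air replicate 1, 24 without air replicate 4 and 28 without air replicate 5. The values below are from all 10 lungs. Without silica replicate 4, the rises of Apoe, Itgam, Tmem86a and Saal1 were 0.62, 0.84, 0.89 and 1.16, and those of Lilrb4, Esr1 and Plaur were 1.08, 1.87 and 0.83, all still called. The falls are given with the lungs they rest on.

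**Figure D2:**
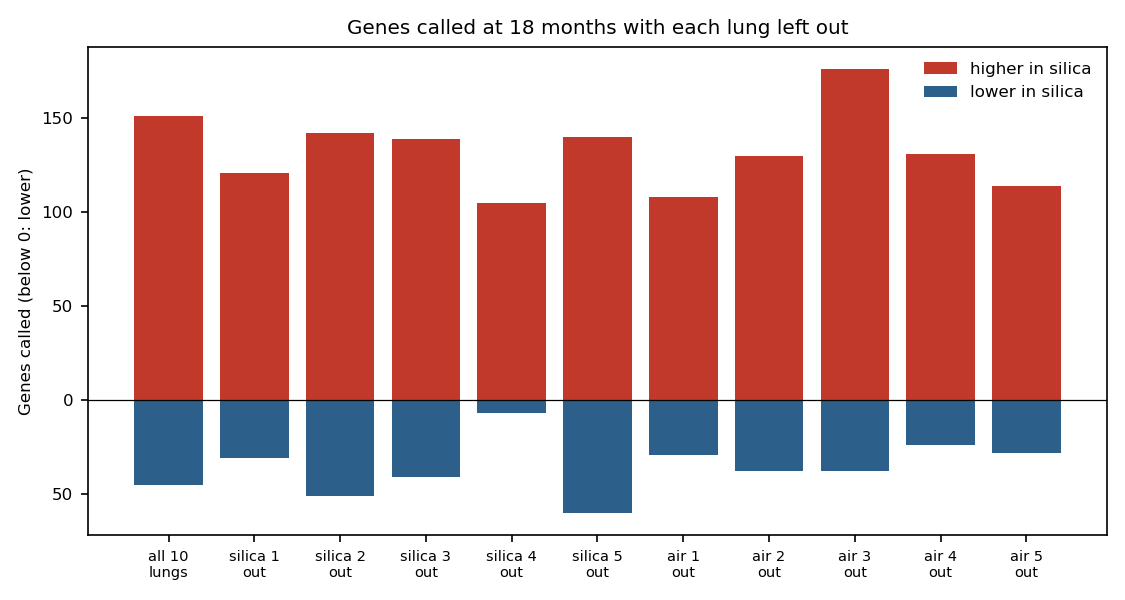
Number of genes called higher (above 0) and lower (below 0) in silica with all 10 lungs and with each lung left out in turn. The higher genes stay between 105 and 176, while the lower genes drop to 7 without silica replicate 4, against 45 with all lungs.

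With 0.5 added to each FPKM value, the largest change of a gene with a symbol was that of Cd177, a surface glycoprotein of neutrophils. With 0.1 added, Esr1 at 2.67 and Saal1 at 2.34 had larger changes than Cd177 at 2.11. Its level was 30.2, 24.7, 38.3, 29.1 and 27.8 FPKM in silica replicates 1 to 5, against 3.80, 9.99, 9.09, 8.87 and 4.68 FPKM in air replicates 1 to 5. Every silica lung was above every air lung by a wide margin. The rise was 2.04 ± 0.23 (SE), a fitted fold of 4.13, with an adjusted p of 1.64e-09. Entries LOC100909700 and LOC103691058 rose with it by 2.02 and 1.96, with levels close to those of Cd177 in each lung, so that reads may be shared between the 3 copies and they are counted as 1 observation.

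Of 13 tested neutrophil genes, 8 rose and none fell, where 11.8% of all tested genes rose. Their median change was 0.63, against 0.02 for all tested genes. This and the other gene lists were chosen with earlier results of these data known, so their shares of calls are not independent support. The summed level of the 15 neutrophil genes in the table was 108 to 117 FPKM in silica lungs, against 56.7 to 72.4 FPKM in air lungs. The count was still 8 without silica replicate 4, and it was 7 without silica replicate 2 or air replicate 1. Ceacam10, a member of the carcinoembryonic antigen family of adhesion proteins, was at 5.12, 4.05, 5.58, 5.37 and 4.58 FPKM in silica lungs, against 1.84, 2.14, 1.60, 2.26 and 1.55 FPKM in air lungs. The groups did not overlap, and the rise was 1.19 ± 0.20 (adjusted p = 4.23e-05). Its level may be shared with a copy, LOC103689942, which rose by 1.13.

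Itgam and Plaur encode proteins that act together on the surface of neutrophils and macrophages, integrin alpha M of complement receptor 3 and the urokinase receptor. Both are on the plus strand of chromosome 1, and their promoter windows, from 250 bases before to 50 bases after the start of the gene, are given because both rose and both hold motifs of myeloid factors. The letters are from RefSeq, assembly GRCr8, 5′ to 3′, and capitals mark a PU.1 core (GAGGAAG), an AP-1 site (TGANTCA) or a C/EBP site (TTGCNNAA) on either strand.
Itgam, chr1:192089342-192089641: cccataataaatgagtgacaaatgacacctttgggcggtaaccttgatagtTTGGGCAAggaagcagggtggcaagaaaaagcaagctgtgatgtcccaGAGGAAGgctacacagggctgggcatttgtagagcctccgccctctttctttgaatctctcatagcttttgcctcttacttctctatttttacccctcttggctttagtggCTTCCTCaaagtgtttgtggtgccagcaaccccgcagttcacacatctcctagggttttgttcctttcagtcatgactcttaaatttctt
Plaur, chr1:89181113-89181412: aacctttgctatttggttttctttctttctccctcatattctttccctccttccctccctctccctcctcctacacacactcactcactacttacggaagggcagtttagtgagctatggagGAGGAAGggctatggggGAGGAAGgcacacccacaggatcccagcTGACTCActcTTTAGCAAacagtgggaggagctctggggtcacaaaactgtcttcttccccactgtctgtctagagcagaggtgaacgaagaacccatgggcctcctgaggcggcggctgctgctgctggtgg

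Both windows hold 2 PU.1 cores and 1 C/EBP site, and that of Plaur also holds 1 AP-1 site, with no overlap between the marked sites. A PU.1 core is in 12.4% of all 33469 promoter windows of the assembly, a C/EBP site in 10.6% and an AP-1 site in 7.33%. Windows were matched for 105 of the 151 higher genes, of which 15.2%, 11.4% and 7.62% held these motifs, and for 829 of all tested genes, of which 13.6% held a PU.1 core and 6.88% an AP-1 site. The shares among the higher genes were thus near those of all genes. A C/EBP site was in 83 of the 829 windows of tested genes. It was in 7 of 31 matched lower genes (22.6%), a larger share than among the higher genes, a difference that was not tested. Of 16 matched genes among the 18 largest rises, 2 held a PU.1 core (12.5%), and these were Itgam and Plaur. Their windows were picked for their motifs and do not stand for the higher genes. The window of Cd177 held none of these 3 motifs, nor the NF-kB motif that was also searched and that 4.18% of all windows hold.

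Itgam was at 10.7, 8.76, 8.53, 16.5 and 6.17 FPKM in silica lungs, against 4.01, 3.80, 5.28, 5.42 and 4.05 FPKM in air lungs. All silica lungs were above all air lungs, with silica replicate 4 the highest, and the rise was 1.03 ± 0.20 (adjusted p = 3.54e-04). Plaur was at 6.81, 6.57, 5.83, 8.58 and 4.94 FPKM in silica lungs, against 2.48, 2.88, 4.94, 3.24 and 2.64 FPKM in air lungs. The lowest silica lung and the highest air lung were at about the same level, and the rise was 0.93 ± 0.17 (adjusted p = 9.98e-05). C5ar1, the receptor for the complement fragment C5a that guides neutrophils, rose by 0.67, at 6.20 to 8.11 FPKM in silica lungs and 3.27 to 5.32 FPKM in air lungs. Arg1, arginase, rose by 0.63, but without air replicate 1 its adjusted p was 0.0651. Pglyrp1, Adam8 and Ceacam1, also neutrophil genes, did not pass the test, at 0.41, -0.06 and -0.07.

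Among 16 tested receptors and signalling partners of myeloid cells, 9 rose and none fell, where 11.8% of all tested genes rose. The median was 0.46, and the count was 9 with any single lung left out. The list has 25 genes with data, and those that reached 1 FPKM in too few libraries, such as Fpr2 and Lair1, were not tested. The summed level of the 25 genes was 185 to 232 FPKM in silica lungs and 134 to 142 FPKM in air lungs. Lilrb4, an inhibitory immunoglobulin-like receptor of macrophages and dendritic cells, was at 24.2, 31.4, 24.9, 40.9 and 19.8 FPKM in silica lungs, against 11.5, 11.2, 12.9, 10.1 and 11.7 FPKM in air lungs. The silica lungs were spread widely and the air lungs narrowly, and the rise was 1.22 ± 0.19 (adjusted p = 9.58e-06). Cd33, a sialic acid-binding lectin with inhibitory motifs, was at 5.01 to 6.31 FPKM in silica lungs and 2.49 to 3.21 FPKM in air lungs, a rise of 0.89. Fcar, the Fc receptor for immunoglobulin A, and Oscar, an activating receptor that binds collagen, rose by 0.81 and 0.79 from low levels. Fcar was at 1.07 to 1.66 FPKM in silica lungs and 0.324 to 0.690 FPKM in air lungs, and Oscar at 1.28 to 2.26 FPKM in silica lungs and 0.478 to 0.898 FPKM in air lungs. With every air lung of this time under 1 FPKM, Fcar and Oscar met the minimum for a test through other lungs, the silica lungs among them. Tyrobp, the adaptor DAP12 through which many of these receptors signal, was the most abundant of the list, at 102 to 133 FPKM in silica lungs and 77.7 to 85.1 FPKM in air lungs. It rose by 0.49 (adjusted p = 0.0104), a call lost under quantile normalization (adjusted p = 0.198). Siglec8, Siglec5 and Lilrb3 rose by 0.51, 0.44 and 0.49, whereas Lilrb3l and Lilra5 had values of -0.10 and -0.06 and did not pass the test.

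Of 7 tested integrins and adhesion proteins of leukocytes, only Itgam and Itgax rose, where 11.8% of all tested genes rose. Itgax, integrin alpha X of dendritic cells and alveolar macrophages, was at 6.43 to 9.28 FPKM in silica lungs and 3.31 to 6.76 FPKM in air lungs, a rise of 0.62 (adjusted p = 7.41e-04). Itgal, the integrin chain common to all leukocytes, had a value of 0.18 that did not pass, and Itgad, another partner of the same beta chain, had -0.39 (adjusted p = 0.0668). Itgam and Itgax kept their calls without any single lung.

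**Figure D3:**
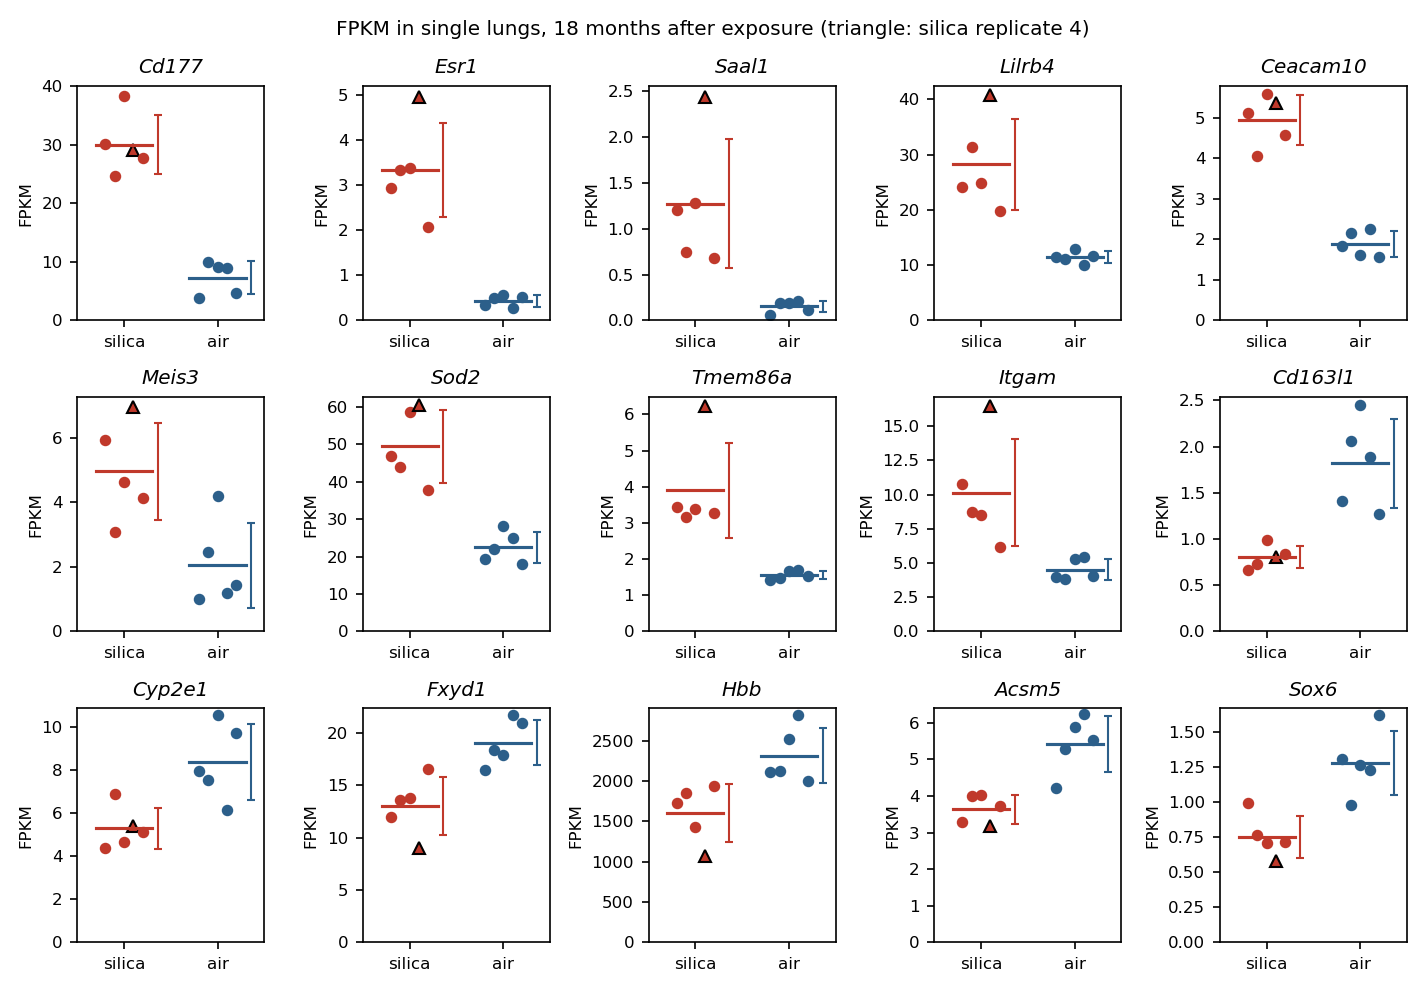
FPKM of 9 genes that rose and 6 that fell in single lungs at 18 months, silica (red, left) and air (blue, right). Each point is 1 lung, the triangle is silica replicate 4, the horizontal line is the group mean and the vertical bar its SD (n = 5). Cd177 and Esr1 lie far above the air lungs in all silica lungs, whereas the triangle is the lowest silica lung for Fxyd1, Hbb, Acsm5 and Sox6.

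Among lymphocyte markers, none of 4 tested B cell markers was called by limma, and their summed level was 9.81 to 11.5 FPKM in silica lungs and 10.2 to 11.8 FPKM in air lungs. Of 12 T and NK cell markers, 1 rose, where 11.8% of all genes did, and their summed level was 126 to 156 FPKM in silica lungs and 125 to 146 FPKM in air lungs. The riser was Tagap, a GTPase-activating protein of activated T cells, at 2.81 to 4.53 FPKM in silica lungs and 1.91 to 2.65 FPKM in air lungs, a rise of 0.51 (adjusted p = 0.0044). Nkg7 and Ncr1, proteins of cytotoxic and NK cells, had values of -0.35 each that did not pass the test. Under median centring, 1 T or NK cell marker was called lower.

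The list of lysosome and peptidase genes, which includes convertases such as Furin, held 16 tested genes. Of these, 8 rose and 1 fell, where 11.8% of all tested genes rose and 3.52% fell. The median of the list was 0.26, and 7 to 9 of its genes rose with single lungs left out. Tpp1, a lysosomal tripeptidyl peptidase, was at 18.6 to 21.9 FPKM in silica lungs and 14.1 to 17.2 FPKM in air lungs, a rise of 0.37 ± 0.068 (adjusted p = 1.44e-04). Hps5, which helps to form lysosome-related organelles, rose by 0.29, and Prcp, a lysosomal carboxypeptidase, rose by 0.55. Furin, the proprotein convertase that activates TGF-beta and many other precursors, rose by 0.38. Each of these kept its call without any single lung. Pld3, a lysosomal exonuclease outside the list, was at 43.6, 25.5, 36.4, 49.3 and 34.2 FPKM in silica lungs, against 15.7, 22.5, 23.4, 19.3 and 18.7 FPKM in air lungs, a rise of 0.89 ± 0.17. The acid sphingomyelinase Smpd1 and the dipeptidyl peptidase Ctsc had values of 0.02 and 0.10 and did not pass. Pcsk6, a convertase related to furin, fell by 0.28 (adjusted p = 0.026), a call lost without silica replicate 4, air replicate 3 or air replicate 5 (adjusted p = 0.0769 to 0.152), and also with array weights (adjusted p = 0.111) and in the fit of the 18-month groups alone (adjusted p = 0.18). Its value was -0.18 without air replicate 3 and -0.21 without silica replicate 4.

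Lipid genes of macrophages rose in 5 of 11 tested cases, where 11.8% of all tested genes rose. None was called lower and the median was 0.27, but only 2 rose under quantile normalization. Apoe, the apolipoprotein that macrophages load with cholesterol for export, was at 469, 258, 235, 840 and 222 FPKM in silica lungs, against 162, 168, 201, 186 and 200 FPKM in air lungs. All silica lungs exceeded all air lungs, but silica replicates 1 and 4 were far above the other 3. The rise was 0.94 ± 0.19 (adjusted p = 5.44e-04), and 0.62 without silica replicate 4 (adjusted p = 0.00773). Its call was lost under quantile normalization (adjusted p = 0.0966) and when the 18-month groups were fitted alone (adjusted p = 0.0908). Dgat2, which catalyses the last step of triglyceride synthesis, had a narrower spread, 11.7 to 16.0 FPKM in silica lungs and 6.38 to 7.47 FPKM in air lungs, a rise of 0.92. Tmem86a, a lysoplasmalogenase of macrophages and fat, rose by 1.05, at 3.45, 3.16, 3.37, 6.24 and 3.27 FPKM in silica lungs, against 1.43, 1.47, 1.67, 1.69 and 1.54 FPKM in air lungs. Here too silica replicate 4 was the highest, yet the other 4 silica lungs lay close together, between 3.16 and 3.45 FPKM and above every air lung. The neighbouring apolipoproteins Apoc1, Apoc2 and Apoc4 varied widely between lungs and were not called, Apoc1 having a value of 0.63 and Apoc2 one of -0.37. Levels of Apoc1 were 2.30 to 20.4 FPKM in silica lungs and 1.61 to 24.5 FPKM in air lungs.

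Alveolar type 2 related genes rose in 4 of 5 tested cases, where 11.8% of all tested genes rose. Of the 4, Napsa and Lpcat1 act in making surfactant, while Cebpa and Folr1 are a transcription factor and a folate receptor. Napsa, introduced above, was at 135, 121, 129, 144 and 113 FPKM in silica lungs, against 85.6, 88.0, 86.8, 80.5 and 84.9 FPKM in air lungs. The groups were far apart and the rise was 0.58 ± 0.11 (adjusted p = 2.39e-04), a call lost only under quantile normalization (adjusted p = 0.192). Lpcat1, the acyltransferase that makes the dipalmitoyl phosphatidylcholine of surfactant, was at 69.2, 68.8, 74.3, 74.1 and 68.6 FPKM in silica lungs, against 45.8, 49.7, 57.1, 50.3 and 49.2 FPKM in air lungs. The groups did not overlap and the rise was 0.49 ± 0.10 (adjusted p = 4.97e-04). Cebpa, a transcription factor of type 2 cells and of myeloid cells, rose by 0.35, but its adjusted p was 0.0511 without silica replicate 1 and 0.0873 without air replicate 1, and 0.0504 in the fit of the 18-month groups alone. Folr1, a folate receptor, rose by 0.68 (adjusted p = 0.0421) on 2 high lungs, at 1.19, 4.02, 1.35, 1.64 and 4.19 FPKM in silica lungs against 0.767 to 1.64 FPKM in air lungs. Its call was lost without silica replicate 2 or 5 or without air replicate 1, 2, 4 or 5 (adjusted p = 0.0519 to 0.169). It was also lost with 0.1 added (adjusted p = 0.0531), without the filter on low values (adjusted p = 0.067), under median centring (adjusted p = 0.0535) and in the fit of the 18-month groups alone (adjusted p = 0.161). Over all alternatives 2 to 4 of the 5 genes were called, 2 of them without air replicate 1 and in the fit of the 18-month groups alone. The summed level of the 5 genes was 209 to 242 FPKM in silica lungs and 149 to 169 FPKM in air lungs, and the summed levels of the neutrophil and myeloid lists above were higher in the same lungs; their part in this difference was not tested.

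Genes of the airway and surface epithelium rose in 6 of 12 tested cases, where 11.8% of all tested genes rose. Their median was 0.29, and 3 rose without air replicate 1. Some genes are in more than 1 list, so the counts of the lists are not separate. Folr1 is in this list and the type 2 list, and Itgam in the neutrophil and integrin lists. Spint2, a membrane inhibitor of serine proteases, was at 68.5 to 74.4 FPKM in silica lungs and 53.6 to 63.2 FPKM in air lungs, a rise of 0.29 ± 0.068. Cxcl17, a chemokine of mucosal epithelium, rose by 0.41, at 43.8 to 51.8 FPKM in silica lungs and 29.8 to 38.9 FPKM in air lungs. Dmbt1, a secreted scavenger receptor of epithelia, rose by 0.39. Spint2 was not called under quantile normalization (adjusted p = 0.145), nor Dmbt1 in the fit of the 18-month groups alone (adjusted p = 0.0618). Of 15 cilia genes 1 rose, where 11.8% of all genes did, and their median was -0.13; the difference from the epithelial list was not tested. The riser was Ahi1, a protein of the ciliary transition zone, at 4.62, 8.05, 4.99, 5.03 and 6.89 FPKM in silica lungs, against 4.80, 4.55, 4.73, 5.22 and 4.63 FPKM in air lungs. Its rise of 0.25 rested on silica replicates 2 and 5, being 0.14 without replicate 2 (adjusted p = 0.202) and not called without silica replicate 5 or air replicate 1, 2 or 5 either (adjusted p = 0.0527 to 0.107). The call was also lost under median centring (adjusted p = 0.0833), under quantile normalization (adjusted p = 0.095) and in the fit of the 18-month groups alone (adjusted p = 0.23). Under median centring, no cilia gene rose and 4 fell. Sodium transport genes rose in 5 of 10 tested cases, among them Fxyd5 and Fxyd3, regulators of the sodium pump, by 0.58 and 0.56, while Fxyd1 fell.

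Sod2, the manganese superoxide dismutase of mitochondria, was the clearest of the oxidant genes. Its level was 46.8, 43.9, 58.7, 60.6 and 37.8 FPKM in silica lungs, against 19.3, 21.9, 28.2, 24.9 and 17.9 FPKM in air lungs, with no overlap. The rise was 1.12 ± 0.15, a fitted fold of 2.18 (adjusted p = 5.89e-07). Ftl1, the ferritin light chain that stores iron, was at 145 to 220 FPKM in silica lungs and 107 to 149 FPKM in air lungs, a rise of 0.64 (adjusted p = 0.0044), lost under quantile normalization (adjusted p = 0.143). Of 10 tested oxidant, haem and iron genes, 3 rose and none fell, where 11.8% of all tested genes rose. Blvrb, biliverdin reductase B, was at 0.16 and did not pass. Among 22 mitochondrial genes 5 rose, Sod2 among them, with a median of 0.10, a count that was 2 without silica replicate 1, silica replicate 5, air replicate 1 or air replicate 5, and 3 without silica replicate 4 or air replicate 4. Glycolytic genes rose in 4 of 6 cases. Ldha, lactate dehydrogenase A, was at 39.3, 31.0, 36.1, 44.8 and 31.5 FPKM in silica lungs, against 23.6, 24.4, 33.8, 26.3 and 22.9 FPKM in air lungs, a rise of 0.47 (adjusted p = 6.23e-04) with air replicate 3 inside the silica range. Without silica replicate 4, Ldha alone of the 6 was called.

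Esr1, the oestrogen receptor alpha, rose nearly as much as Cd177 on this scale. It was at 2.93, 3.34, 3.37, 4.96 and 2.08 FPKM in silica lungs, against 0.332, 0.489, 0.562, 0.266 and 0.514 FPKM in air lungs. The lowest silica lung was well above the highest air lung, and the rise was 2.01 ± 0.28 (adjusted p = 5.89e-07), which understates the change since the air level is close to the 0.5 that was added. No air lung of this time reached 1 FPKM, so Esr1 met the minimum for a test through other lungs, the silica lungs among them. Srd5a1, the steroid 5-alpha reductase that makes dihydrotestosterone, was at 4.52, 3.86, 4.93, 5.90 and 4.70 FPKM in silica lungs, against 2.15, 2.47, 3.22, 2.80 and 2.27 FPKM in air lungs. The groups did not overlap and the rise was 0.78 ± 0.13 (adjusted p = 3.39e-05). Hsd3b7 and Nr1h2, the other tested genes of the 4 for steroid response and metabolism, had values of 0.17 and -0.04 and did not pass. Both calls held with any single lung left out.

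Among the other large rises, the entry named Saal1 was at 1.21, 0.747, 1.28, 2.44 and 0.683 FPKM in silica lungs, against 0.0631, 0.185, 0.187, 0.211 and 0.117 FPKM in air lungs, a rise of 1.36 ± 0.23 (adjusted p = 3.53e-05). In the GRCr8 gene table this name is both the symbol of Saal1 and a synonym of Saa3, so which of these genes was counted is not known. Meis3, a homeobox gene, was at 5.94, 3.09, 4.63, 6.94 and 4.14 FPKM in silica lungs, against 0.995, 2.45, 4.18, 1.18 and 1.45 FPKM in air lungs, a rise of 1.18 with air replicate 3 inside the silica range. Rspo3, a secreted amplifier of Wnt signalling, rose by 0.91, at 0.592 to 1.45 FPKM in silica lungs and 0.0836 to 0.458 FPKM in air lungs. No air lung of this time reached 1 FPKM for Saal1 or Rspo3, so both met the minimum for a test through other lungs. The level needed for naming was met by their silica means alone, 1.27 FPKM for Saal1 and 1.01 FPKM for Rspo3. A gene this low in all lungs could not be tested. P2ry2, the receptor for extracellular ATP and UTP, was at 10.9, 10.6, 11.1, 13.5 and 10.3 FPKM in silica lungs, against 4.81, 5.59, 6.36, 6.87 and 6.11 FPKM in air lungs, a rise of 0.87 ± 0.15. Enpp3, an ectoenzyme that hydrolyses extracellular nucleotides, rose by 0.75 (adjusted p = 7.41e-04). All of these kept their calls without any single lung.

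Cell division genes rose in 4 of 13 tested cases, where 11.8% of all tested genes rose, and in 2 without silica replicate 4 or without silica replicate 5. Prc1, which bundles microtubules at the end of mitosis, was at 3.48, 3.20, 3.01, 3.40 and 3.48 FPKM in silica lungs, against 1.33, 1.80, 2.72, 2.25 and 1.79 FPKM in air lungs, a rise of 0.65 ± 0.14 (adjusted p = 7.41e-04). Mki67, the Ki-67 protein of cycling cells, was at 1.86 to 2.55 FPKM in silica lungs and 1.15 to 1.73 FPKM in air lungs, a rise of 0.53 (adjusted p = 0.00375). Both held without any single lung.

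Of 19 tested matrix and TGF-beta genes, 3 rose and 1 fell, with a median of -0.05, shares not far from the 11.8% higher and 3.52% lower of all genes. Cpxm2, a secreted carboxypeptidase-like protein, rose by 0.62, at 6.43 to 10.9 FPKM in silica lungs and 3.87 to 7.36 FPKM in air lungs. Tgfb1, the main fibrogenic cytokine, was at 5.03, 4.89, 5.73, 6.20 and 5.99 FPKM in silica lungs, against 4.85, 4.22, 3.96, 3.48 and 4.11 FPKM in air lungs. The groups lay next to each other without overlap, and the rise was 0.39 ± 0.12 (adjusted p = 0.0209), a call lost without silica replicate 4 (adjusted p = 0.0763) or air replicate 4 (adjusted p = 0.0744), under median centring (adjusted p = 0.0543) and under quantile normalization (adjusted p = 0.0674). Ctgf and Serpinh1, a matricellular protein that responds to TGF-beta and the collagen chaperone, had values of 0.06 and -0.02 and did not pass. Among 7 NF-kB and TNF regulators Bcl3, an atypical inhibitor of NF-kB, rose by 0.53, and by 0.42 to 0.61 with single lungs left out, called each time. Relb rose by 0.35, a call lost without silica replicate 4 or air replicates 1 or 5 (adjusted p = 0.0822 to 0.0884) and in the fit of the 18-month groups alone (adjusted p = 0.0996). None of 15 ribosomal protein genes was called, with a median of 0.01.

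**Figure D4:**
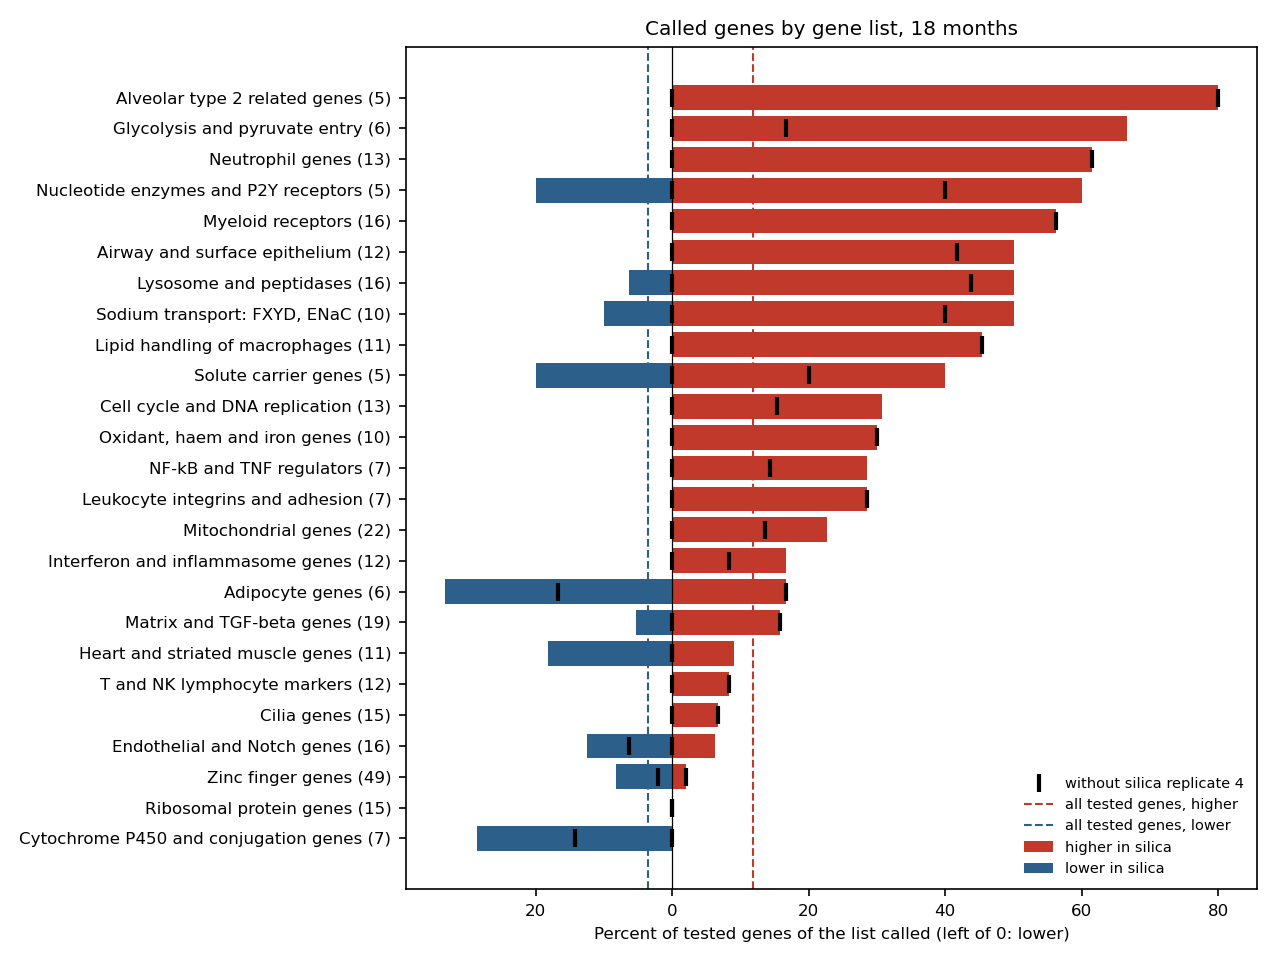
Percent of the tested genes of each list called higher (red, right of 0) and lower (blue, left of 0) in silica at 18 months, for lists with at least 5 tested genes and the number tested in brackets. Black ticks give the share without silica replicate 4 and dashed lines the share of all 1278 genes, 11.8% higher and 3.52% lower. The alveolar type 2, neutrophil and myeloid lists keep their share of rises without that lung, while the glycolysis list does not.

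The lower genes were fewer and smaller in their changes. Cd163l1, a scavenger receptor related to CD163, fell most, to 0.661, 0.730, 0.986, 0.808 and 0.838 FPKM in silica lungs, against 1.41, 2.07, 2.45, 1.89 and 1.27 FPKM in air lungs. All silica lungs were below all air lungs, and the change was -0.81 ± 0.22 (adjusted p = 0.00912). Acsm5, a medium-chain acyl-CoA synthetase, was at 3.28, 3.99, 4.03, 3.18 and 3.73 FPKM in silica lungs, against 4.23, 5.28, 5.87, 6.25 and 5.53 FPKM in air lungs, a change of -0.51 ± 0.13 (adjusted p = 0.00484). Pde2a, a cyclic nucleotide phosphodiesterase of endothelium, was at 2.72, 2.48, 2.12, 1.82 and 2.48 FPKM in silica lungs, against 3.76, 3.59, 2.67, 3.06 and 3.89 FPKM in air lungs, a change of -0.46 ± 0.13 (adjusted p = 0.00872). These 3 of the 12 largest falls kept their calls without silica replicate 4 and in every other alternative. The other calls left without that lung were Znf471, LOC102553828 and the identical entries LOC103690068 and LOC100361913.

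The other 9 of the 12 largest falls lost their calls without silica replicate 4, and were named by size. Fxyd1, phospholemman of muscle and vessels, was at 12.0, 13.6, 13.8, 8.97 and 16.5 FPKM in silica lungs, against 16.5, 18.4, 17.9, 21.7 and 20.9 FPKM in air lungs, a change of -0.56 (adjusted p = 0.00872, and 0.0688 without the lung). Hbb, the beta-globin of red cells, was at 1724, 1853, 1429, 1073 and 1937 FPKM in silica lungs, against 2113, 2126, 2522, 2817 and 1994 FPKM in air lungs, a change of -0.55 (adjusted p = 0.0408). Its call was lost without silica replicates 3 or 4 or air replicates 1, 3 or 4 (adjusted p = 0.0552 to 0.187), without the filter on low values (adjusted p = 0.325), under quantile normalization (adjusted p = 0.611) and in the fit of the 18-month groups alone (adjusted p = 0.101). The summed globin-related level was 1170 to 2119 FPKM in silica lungs and 2170 to 3037 FPKM in air lungs, lowest in silica replicate 4. Cyp2e1, a cytochrome P450, had a change of -0.61 at 4.41 to 6.88 FPKM in silica lungs and 6.17 to 10.6 FPKM in air lungs, and lost its call without silica replicates 1, 3, 4 or 5 or air replicates 1, 3 or 5 (adjusted p = 0.0506 to 0.0891) or without the filter on low values (adjusted p = 0.0537). Without silica replicate 4 the change of Cyp2e1 was -0.62, no smaller than with all lungs. Sox6 had -0.50, Lhb -0.48, Synm -0.42, Slc7a10 -0.42, Cyp2b2 -0.41 and Hipk4 -0.40, with adjusted p-values of 0.0549 for Sox6, 0.209 for Lhb, 0.0967 for Synm, 0.193 for Slc7a10, 0.134 for Cyp2b2 and 0.162 for Hipk4 without silica replicate 4. Without that lung Lhb was at -0.32 and Cyp2b2 at -0.27. Further single lungs also ended these calls, namely air replicate 5 for Sox6 (adjusted p = 0.053), air replicate 1 for Synm (adjusted p = 0.0527) and air replicate 2 for Cyp2b2 (adjusted p = 0.054). For Lhb they were silica replicate 3 and air replicates 2 and 4 (adjusted p = 0.0525 to 0.107). For Hipk4 they were silica replicate 3 and air replicates 1, 2 and 5 (adjusted p = 0.0769 to 0.104). For Slc7a10 they were silica replicates 1 and 3 and air replicates 1, 2, 4 and 5 (adjusted p = 0.0552 to 0.082). In the fit of the 18-month groups alone, Cyp2b2, Hipk4, Lhb and Slc7a10 lost their calls (adjusted p = 0.0643 to 0.114), and without the filter on low values Hipk4, Lhb and Slc7a10 did (adjusted p = 0.0517 to 0.0601).

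Silica replicate 4 also had the lowest summed level of several tissue lists. Its cytochrome P450 and conjugation genes summed to 55.6 FPKM, against 93.2 to 117 FPKM in the other silica lungs and 87.7 to 115 FPKM in air lungs. Its heart and striated muscle genes summed to 50.5 FPKM, against 61.2 to 86.3 FPKM in the other silica lungs and 69.2 to 103 FPKM in air lungs. The endothelial genes summed to 166 FPKM in that lung and to 179 to 199 FPKM in the other silica lungs, against 188 to 210 FPKM in air lungs. Of 16 tested endothelial and Notch genes 2 fell and 1 rose, where 3.52% of all tested genes fell and 11.8% rose. The median of the list was -0.18. Akap12, a scaffold for protein kinase A, was the second to fall, by 0.39 (adjusted p = 0.0238), a call lost without silica replicates 1 or 4 or air replicates 1, 2 or 4 (adjusted p = 0.0511 to 0.122). The part that the makeup of this piece plays in the falls was not tested.

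The study also followed the same exposure at 1, 3, 6, 9 and 12 months with other rats and their own air controls, which allows the silica difference at 18 months to be set against the earlier ones. Genes called numbered 113, 233, 353, 393 and 302 at those times (8.84%, 18.2%, 27.6%, 30.8% and 23.6% of the tested genes), against 196 at 18 months. The air group at 9 months held 4 lungs, and every other group held 5. Of the 151 genes higher at 18 months, 55, 109, 128, 128 and 110 were also called higher at 1, 3, 6, 9 and 12 months, or 36.4%, 72.2%, 84.8%, 84.8% and 72.8% of them. In turn they made up 50.9%, 53.7%, 47.2%, 51.4% and 59.1% of the genes called higher at those times, which were 8.45%, 15.9%, 21.2%, 19.5% and 14.6% of all tested genes. Of the 45 lower genes, 1, 12, 20, 26 and 26 were also called lower, where 0.391%, 2.35%, 6.42%, 11.3% and 9.08% of all tested genes were. No gene called at 18 months was called in the opposite direction at another time. At all 5 earlier times, 41 of the higher genes and 1 of the lower were called. A further 7 of the higher genes and 10 of the lower were called at no earlier time. Among them were Nlrp12, Rab6a, Ampd3, Nucb1 and Ahi1 of the higher and Hbb, Lhb and Hipk4 of the lower. The lack of an earlier call does not make a change new at 18 months. Hbb had differences of -0.38, -0.38, -0.36, -0.37 and -0.45 before its -0.55, which differed from their mean by -0.16 (limma, adjusted p = 0.992). Hipk4 had -0.18, -0.03, -0.20, -0.32 and -0.27 before its -0.40. Ahi1, in contrast, had -0.004, -0.01, -0.12, -0.14 and -0.17 before its 0.25. Nlrp12, a regulator of inflammatory signalling in myeloid cells, was at 1.09 to 2.58 FPKM in silica lungs and 0.826 to 0.983 FPKM in air lungs, a rise of 0.50 (adjusted p = 0.00867) that was lost without silica replicate 2 (adjusted p = 0.0653) and in the fit of the 18-month groups alone (adjusted p = 0.0803).

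The time courses of the named genes differed in shape. Cd177 had differences of 2.1, 2.98, 1.84, 1.65 and 1.36 at 1, 3, 6, 9 and 12 months and 2.04 at 18 months, so it was called at all 6 times. Esr1 had differences of -0.003, 0.18, 1.68, 2.57 and 2.40 before its 2.01 at 18 months, and was first called at 6 months. Lilrb4 had 0.31, 0.70, 1.87, 1.61 and 0.99 before its 1.22, and Sod2 had 0.66, 1.34, 0.97, 1.15 and 0.90 before its 1.12. Apoe, in contrast, had -0.01, 0.07, 0.26, 0.58 and 0.52 before its 0.94, or 0.62 without silica replicate 4, which is close to its values at 9 and 12 months. Cd163l1 had 0.19, 0.08, -0.41, 0.06 and -0.84 before its -0.81, and was called at 12 and 18 months only.

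**Figure D5:**
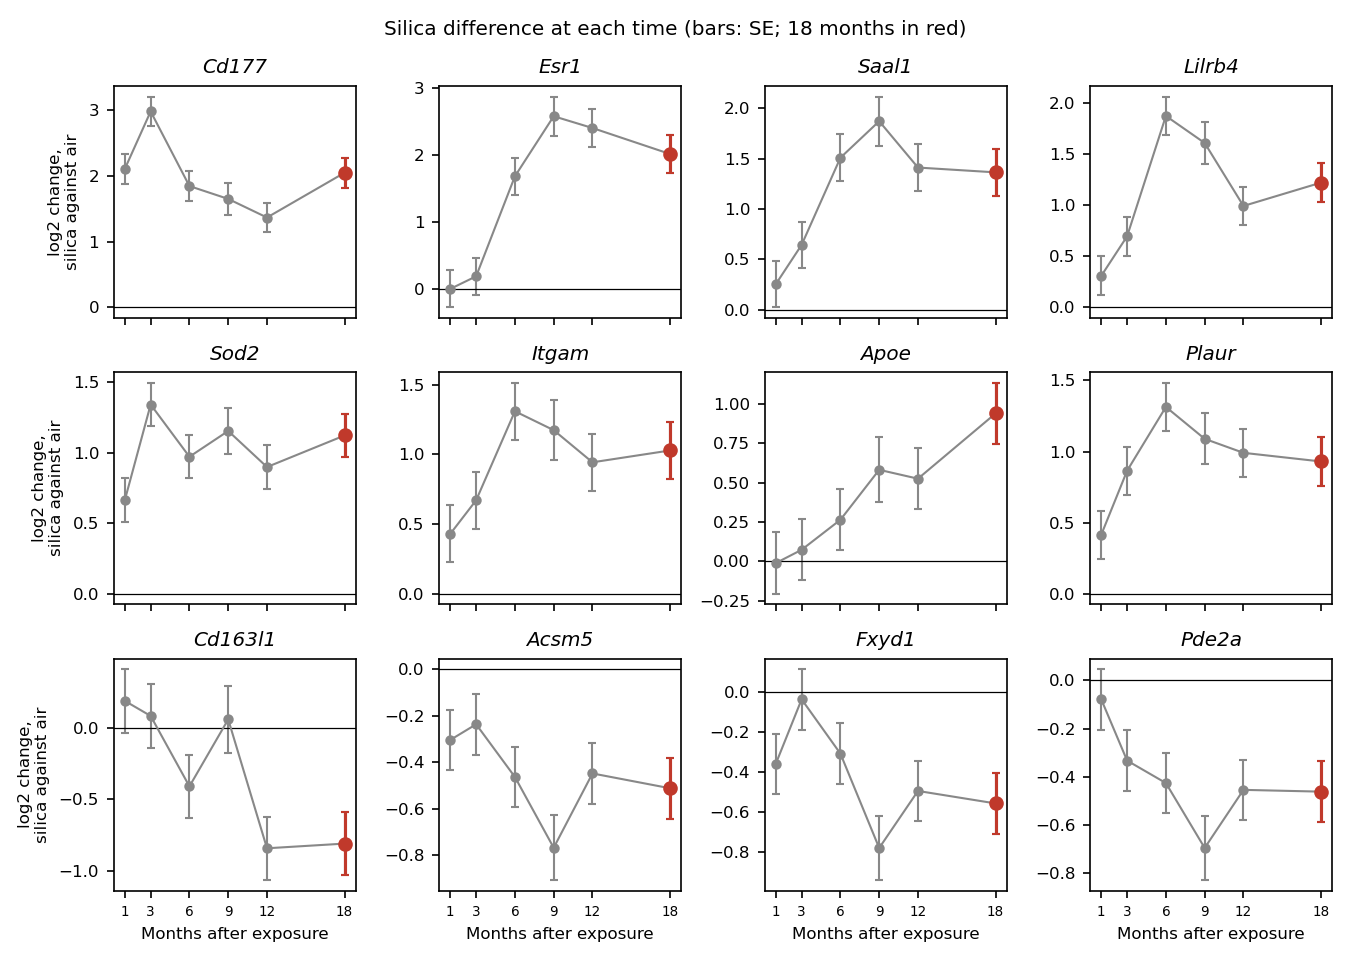
Silica difference of 12 genes as log2 change against air, over the 6 times (horizontal axis, months after exposure), with bars for the SE and the 18-month value in red. Cd177 and Sod2 are raised at all times, Esr1 from 6 months on, and Apoe is at 0.94 at 18 months, a value that is 0.62 without silica replicate 4, against 0.58 at 9 months.

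No gene's silica difference at 18 months differed from the mean of the 5 earlier differences at an adjusted p of 0.05 (limma, 0 of 1278, 0%). At an unadjusted p under 0.05 there were 59 such genes (4.62%). Apoe had one of the smallest p-values among called genes, with a difference 0.65 higher at 18 months than its earlier mean (95% interval 0.22 to 1.08, unadjusted p = 0.00359, adjusted p = 0.866). Without silica replicate 4 this was 0.34 (95% interval -0.01 to 0.69, unadjusted p = 0.0566), and under quantile normalization it was 0.36 (95% interval -0.10 to 0.83). Ahi1 was 0.34 higher (adjusted p = 0.409), called without silica replicate 1 (0.41, adjusted p = 0.0322), and 0.23 higher without silica replicate 2 (adjusted p = 0.993). Cd163l1 was 0.62 lower (95% interval -1.11 to -0.14, adjusted p = 0.992), and Esr1 was 0.64 higher (95% interval 0.03 to 1.25, adjusted p = 0.992). Against 9 months, the time with most calls, 0 genes differed after adjustment and 101 (7.90%) at an unadjusted p under 0.05. The falls from 9 months in the silica difference were 0.58 for Mki67 and 0.44 for Lpcat1, both with an adjusted p of 0.557. Against 12 months, 0 genes differed after adjustment and 63 (4.93%) without it. Fewer genes were called at 18 months than at 9 months, but for no single gene was the difference itself called smaller.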

How the data were processed

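RNA was measured in a piece of lung from each rat. Total RNA was isolated with DNase treatment and made into stranded, ribosomal RNA-depleted libraries, per the labels' protocols. Per the submitters' processing notes, reads were handled with Cufflinks 2.1.1, TopHat2 2.0.9 and Bowtie2 2.2.9, beside Trimmomatic 0.35 and bcl2fastq 2.19, in an order they do not state. A genome build is not given in the sources used here. Deposited by the authors were FPKM values, named so in the title of the deposited table, and all columns were matched to samples by name. Of 2888 entries, 1 was incomplete (31 of 59 values) and was left out. The table ends there, so it may be part of a longer one.

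FPKM are not counts, so limma 3.58.1 in R 4.3.3 was used on log2(FPKM + 0.5), with an intensity trend, all 12 groups in one fit (47 residual degrees of freedom, prior 3.41) and no covariate. The scale understates the change of low genes. P-values were adjusted by the Benjamini-Hochberg method over the 1278 genes with at least 1 FPKM in at least 4 libraries, and genes under 0.05 were called. A gene low in 1 group could pass this filter through the other group, while a gene low in both was left out. At 18 months no air lung reached 1 FPKM for Esr1, Saal1, Rspo3, Fcar, Oscar or Nlrp12, and no silica lung did for Cd163l1 or Sox6. On simulated data of this layout with 1278 genes, 79% of changes of 0.5 and 97% of changes of 1 on the log2 scale were recovered for silica against air at 18 months, and 3.30% of calls were false. The simulated noise was independent between genes, with no shift between libraries and no lung set apart as silica replicate 4 is. These rates therefore need not hold for the real lungs. Absolute depth is unknown: 63.7% of 1997 low values lay within 0.1 on the log2 scale of 1 step, which gives relative depth only, so no interval for counting error can be given.

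The genes named were the 18 largest rises and 12 largest falls among called genes with a symbol and a mean of at least 1 FPKM in either group, plus called members of 30 gene lists, up to 4 a list, and called genes with the smallest p in the tests between times. A few others, such as entries that copy a named gene, were named after their values were seen. The samples, lists and rules were chosen with earlier results of these data known. Replicate numbers follow the order of the samples. The rats were housed 3 to a cage, per the labels' protocols, and cages are not given, so p-values measure the spread between these rats. No 2 libraries of the 10 held the same values. Alternatives were other pseudocounts and filters, median centring, quantile normalization, array weights, the 18-month groups alone and each lung left out. The result of 1 gene is not reported here.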

Additional observations from a re-analysis of the deposited data

Results flagged for a closer look

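Within a group of 5 lungs, a value was picked out when its gap to the nearest other value took up over 0.71 of the group's range on the log2 scale for genes. This held for 11 of 200 groups, where chance alone picks out about 1 in 20. Among silica lungs, Tmem86a was at 6.24 FPKM in replicate 4, with the next lung at 3.45 FPKM. Oscar was at 2.26 FPKM in silica replicate 2, with the next at 1.48 FPKM. Ifitm1, an interferon-induced membrane protein, was at 43.4 FPKM and Relb at 4.51 FPKM in silica replicate 4, each the highest of its group. Enpp1, an ectonucleotide pyrophosphatase, was lowest in silica replicate 1 at 3.70 FPKM, and Fxyd3 was lowest in silica replicate 2 at 22.4 FPKM. Among air lungs, Aldoa at 77.1 FPKM and Ftl1 at 149 FPKM were highest in replicate 3, and Cxcl17 at 29.8 FPKM was lowest in replicate 1. Of the library summaries, the FPKM sum was lowest in silica replicate 3 at 15899, and relative depth was highest in air replicate 2 at 2.26.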

How the results depend on the processing

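No paired analysis was possible because the labels give each rat its own number and the replicate numbers only follow the order of the samples. The 196 calls at 18 months became 130 (112 higher, 18 lower) when the 18-month groups were fitted alone, where fewer lungs estimate the spread, and 112 to 214 with single lungs left out, the lowest without silica replicate 4 and the highest without air replicate 3. The other alternatives gave 165 to 270 calls, the most with array weights. The higher share of calls was 77.0%, against 50.7% under median centring (112 of 221), 52.3% under quantile normalization (103 of 197) and 93.8% without silica replicate 4; the cause was not tested. Of the 30 genes named for size, 20 kept their call in every alternative that tested them and 10 lost it in at least 1. Of all 96 called genes followed, 44 kept theirs in this sense, and none reversed. Among the 20, Rspo3, Fcar and Oscar were not tested under the stricter filter of 2 FPKM in at least 4 libraries. Against the mean of the earlier times, 0 to 1 genes were called with single lungs left out, and 2 without the filter on low values, LOC102547412 and LOC100363535, both named after their values were seen. Against 12 months, 2 were called under quantile normalization, LOC103690068 and LOC100361913, which have identical values. Against 9 months, 0 genes were called under any alternative. Without silica replicate 3 of 12 months, 0 genes were called against 12 months or the earlier mean. Depth is unknown, so low genes such as Saal1 or Fcar carry an error that the files do not show.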

Other observations

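Zinc finger genes, many of them transcription factors of the KRAB class, had more falls than rises called, as did the endothelial list above. Of 49 tested, 1 rose and 4 fell, where 11.8% of all tested genes rose and 3.52% fell. The median was -0.08 against 0.02 for all tested genes, and 8 fell under median centring. Zfp874b rose by 0.44, and Znf471, Zfp667, Zfp110 and Zfp40 fell by 0.33, 0.30, 0.19 and 0.29. All 5 calls were lost in the fit of the 18-month groups alone (limma, adjusted p = 0.0593 to 0.109), and that of Zfp667 with array weights (adjusted p = 0.0547). Without silica replicate 4 or air replicate 4, 1 fell, and without silica replicate 1 or air replicate 1 or 5, 2 fell. Arntl, the core clock factor BMAL1, was at 4.85 to 6.12 FPKM in silica lungs and 6.26 to 8.51 FPKM in air lungs, a fall of 0.37 (limma, adjusted p = 0.0234), lost without silica replicates 4 or 5 or air replicate 4 (adjusted p = 0.0549 to 0.088). Dbp, a clock output gene, had a value of 0.65 that did not pass (adjusted p = 0.0992). The labels give no hour of collection.

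Of the receptors for insulin-like growth factors, Igf2r, which also carries enzymes to lysosomes, was at 21.6 to 25.3 FPKM in silica lungs and 18.2 to 19.1 FPKM in air lungs, a rise of 0.28 (adjusted p = 0.00331). Igf1r, the signalling receptor, was at 2.57 to 3.86 FPKM in silica lungs and 3.70 to 4.46 FPKM in air lungs, a fall of 0.30 (adjusted p = 0.0263), lost without silica replicate 4 or air replicates 3 or 4 (adjusted p = 0.0564 to 0.144) and in the fit of the 18-month groups alone (adjusted p = 0.0543). Thbs2, a matricellular thrombospondin that reached 1 FPKM in too few libraries to be tested, was at 1.70, 0.431, 0.417, 4.26 and 0.382 FPKM in silica lungs, against 0.209 to 0.414 FPKM in air lungs. Fpr1, the formyl peptide receptor of neutrophils, was also untested, at 0.263 to 0.638 FPKM in silica lungs and 0.0539 to 0.338 FPKM in air lungs.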
